A study of Mus musculus with 12 samples.

Results

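The genes of MHC class I antigen presentation were followed in subcutaneous LLC1-shLkb1 tumors. The set comprised 10 genes listed by symbol: the heavy chains H2-K1 and H2-D1, their light chain B2m, the peptide transporter subunits Tap1 and Tap2, the loading factor Tapbp, the trimming peptidase Erap1, the proteasome subunits Psmb8 and Psmb9, and the transcriptional activator Nlrc5. All 10 were found among the 34678 gene symbols measured, and all 10 were among the 15350 genes with enough expression to be tested.

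MHC class I molecules carry short peptides from proteins made inside a cell to its surface, where CD8+ T cells read them. The peptides are cut by the proteasome, pumped into the endoplasmic reticulum by TAP, trimmed there by ERAP1 and fitted into the groove of the heavy chain with the help of tapasin, the product of Tapbp. Interferon-gamma is known to raise the whole set, in part through NLRC5, and most nucleated cells, tumor and immune cells alike, express it at some level.

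The tumors grew from LLC1, a mouse Lewis lung carcinoma cell line, in which a short hairpin RNA knocks down Lkb1 (gene symbol Stk11), so all 4 arms carry the same knockdown. The cells were implanted under the skin of C57BL/6 mice, which keep their immune system. Mice received vehicle with control immunoglobulin, palbociclib (an inhibitor of the cell cycle kinases CDK4 and CDK6), an antibody against the T-cell checkpoint receptor PD-1, or the combination of both, and 3 tumors per arm were sequenced, 12 in all. Because whole tumors were sequenced, a change in the number of cells of a type cannot be told apart from a change of RNA per cell. The labels describe separate tumors, and every p-value measures the spread between these tumors.

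Expression is given as FPKM, the fragments of a gene scaled to its transcript length and to all mapped fragments of the tumor. The number of fragments per tumor, inferred from the smallest steps of low values, ran from 14871774 to 20272649. This depth gives the least abundant member, Psmb9, at most about 102 fragments in its lowest tumor and 556 in its highest, whereas B2m rests on 10509 to 27938, and these numbers limit counting error only. The labels call the tissue lung adenocarcinoma, but the lung epithelial markers Sftpc, Nkx2-1 and Scgb1a1 were listed at 0 in all 12 tumors. The epithelial keratin Krt8 was between 62.0 and 276 FPKM. The other listed epithelial markers were low: Epcam did not exceed 1.81 FPKM, Krt18 5.08 FPKM and Krt19 4.39 FPKM. Mean Stk11 was 10.6 FPKM with vehicle, 9.83 with palbociclib, 9.29 in the anti-PD-1 arm and 10.1 with the combination, and without an arm of unmodified cells the knockdown itself cannot be checked here. Some tumors stood apart in genes of tissue around the graft. The summed FPKM of 4 skeletal muscle markers was 137 in palbociclib replicate 3, 133 in combination replicate 2 and 45.6 in vehicle replicate 1, and at most 8.45 elsewhere. Skin keratins summed to 356 FPKM in palbociclib replicate 2 and to less than 1 in the others, and adipose markers to 55.8 in palbociclib replicate 1 and 139 in combination replicate 1.

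Members lie on 4 chromosomes (GRCm38, GENCODE release M21). B2m is at chr2:122147686-122153083, Nlrc5 at chr8:94434356-94527272 and Erap1 at chr13:74639568-74693201. The other 7 lie in the MHC on chromosome 17 between 33915899 and 35267499, a span of 1351601 bases that runs from Tapbp (chr17:33915899-33929292) over H2-K1 (chr17:33996017-34000347) to H2-D1 (chr17:35262730-35267499). Within it Psmb9, Tap1, Psmb8 and Tap2 follow one another from 34181987 to 34216321. Psmb9 is read from the minus strand and Tap1 from the plus strand, and annotated transcripts of the pair overlap over 212 bases. Whether the counting used strand is not given in the sources used here, so fragments in that overlap cannot be assigned to one of them.

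The promoters of the class I pair and of B2m are shown because these genes are the abundant end of the set, and the stretch between Psmb9 and Tap1 because these genes share it and had the largest differences of the members when the effect of palbociclib was averaged over both pairs of arms. Each of the first 3 lines gives the 250 bases before a RefSeq start site (GRCm38.p6), read 5′ to 3′ along the gene's strand. Capitals mark matches, on either strand, to the letters GAAANNGAA (as in interferon-stimulated response elements), GGNNTTNCC (as in NF-kappa B sites), TGACG (the core of cyclic AMP response elements) and CCAAT (the NF-Y box, written ATTGG on the other strand). The first is the minus strand of chr17:34000348-34000597, the second the plus strand of chr17:35262844-35263093 and the third the plus strand of chr2:122147437-122147686. The fourth holds the 225 bases between the start sites of Psmb9 and Tap1, chr17:34187331-34187555, on the plus strand.
H2-K1: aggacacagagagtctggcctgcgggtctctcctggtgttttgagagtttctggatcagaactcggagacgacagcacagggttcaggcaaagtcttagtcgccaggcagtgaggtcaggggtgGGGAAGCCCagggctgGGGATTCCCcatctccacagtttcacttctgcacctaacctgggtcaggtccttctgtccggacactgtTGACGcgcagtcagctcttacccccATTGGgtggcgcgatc
H2-D1: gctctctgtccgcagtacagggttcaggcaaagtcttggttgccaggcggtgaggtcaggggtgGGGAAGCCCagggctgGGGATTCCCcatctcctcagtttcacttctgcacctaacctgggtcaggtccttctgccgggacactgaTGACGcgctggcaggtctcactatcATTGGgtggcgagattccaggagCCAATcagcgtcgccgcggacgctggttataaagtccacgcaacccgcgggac
B2m: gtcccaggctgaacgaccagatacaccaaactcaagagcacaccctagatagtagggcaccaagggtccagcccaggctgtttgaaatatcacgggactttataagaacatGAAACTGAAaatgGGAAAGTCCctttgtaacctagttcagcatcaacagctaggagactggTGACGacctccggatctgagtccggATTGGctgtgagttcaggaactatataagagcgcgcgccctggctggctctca
Psmb9-Tap1: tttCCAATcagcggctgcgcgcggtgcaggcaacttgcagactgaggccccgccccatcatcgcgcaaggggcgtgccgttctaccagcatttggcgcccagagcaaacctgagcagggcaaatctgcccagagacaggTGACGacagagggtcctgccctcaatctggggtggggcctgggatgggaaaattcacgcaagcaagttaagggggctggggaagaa

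Shifted by 60 bases, the H2-K1 and H2-D1 stretches were identical at 166 of 190 positions (87.4%), and both carried the same pair of capitalized 9-base matches, GGGAAGCCC and GGGATTCCC, 7 bases apart. B2m carried GAAACTGAA followed after 4 bases by GGAAAGTCC. A RefSeq promoter entry was found for 8 of the 10 members, the exceptions being Tap2 and Nlrc5. Of these 8, 2 (B2m and Erap1) held GAAANNGAA, 3 (H2-K1, H2-D1 and B2m) held GGNNTTNCC, 5 held TGACG and 6 held CCAAT. Among the 250 bases upstream of all 32851 RefSeq starts the shares were 7.13%, 13.5%, 17.8% and 33.8%. A match describes letters and not a bound factor. Only these letters were searched, so a promoter without a match may still hold a variant of the element.

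Over the 12 tumors the members differed widely in level per length. Mean FPKM descended from B2m (1258 FPKM) over H2-D1 (535), H2-K1 (108), Tapbp (70.2), Psmb8 (29.6), Tap2 (27.0), Erap1 (25.9), Tap1 (9.60) and Nlrc5 (7.78) to Psmb9 (4.93). This order held in each of the 12 tumors for B2m over H2-D1, H2-D1 over H2-K1, Tapbp over Psmb8, Erap1 over Tap1 and Nlrc5 over Psmb9. By contrast, Psmb8 exceeded Tap2 in 7 of 12 tumors and Tap2 exceeded Erap1 in 9 of 12, so the order of these 3 neighbours changed between tumors. Differences between genes were not tested. H2-D1 was 3.88 to 6.30 times as high as H2-K1 within a tumor. Class I genes resemble one another in sequence: of all 100-base windows of their annotated transcripts, 0.957% for H2-K1 and 3.43% for H2-D1 also occur in a listed class I relative, so a small part of their fragments could have been split by the counting.

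**Figure D1:**
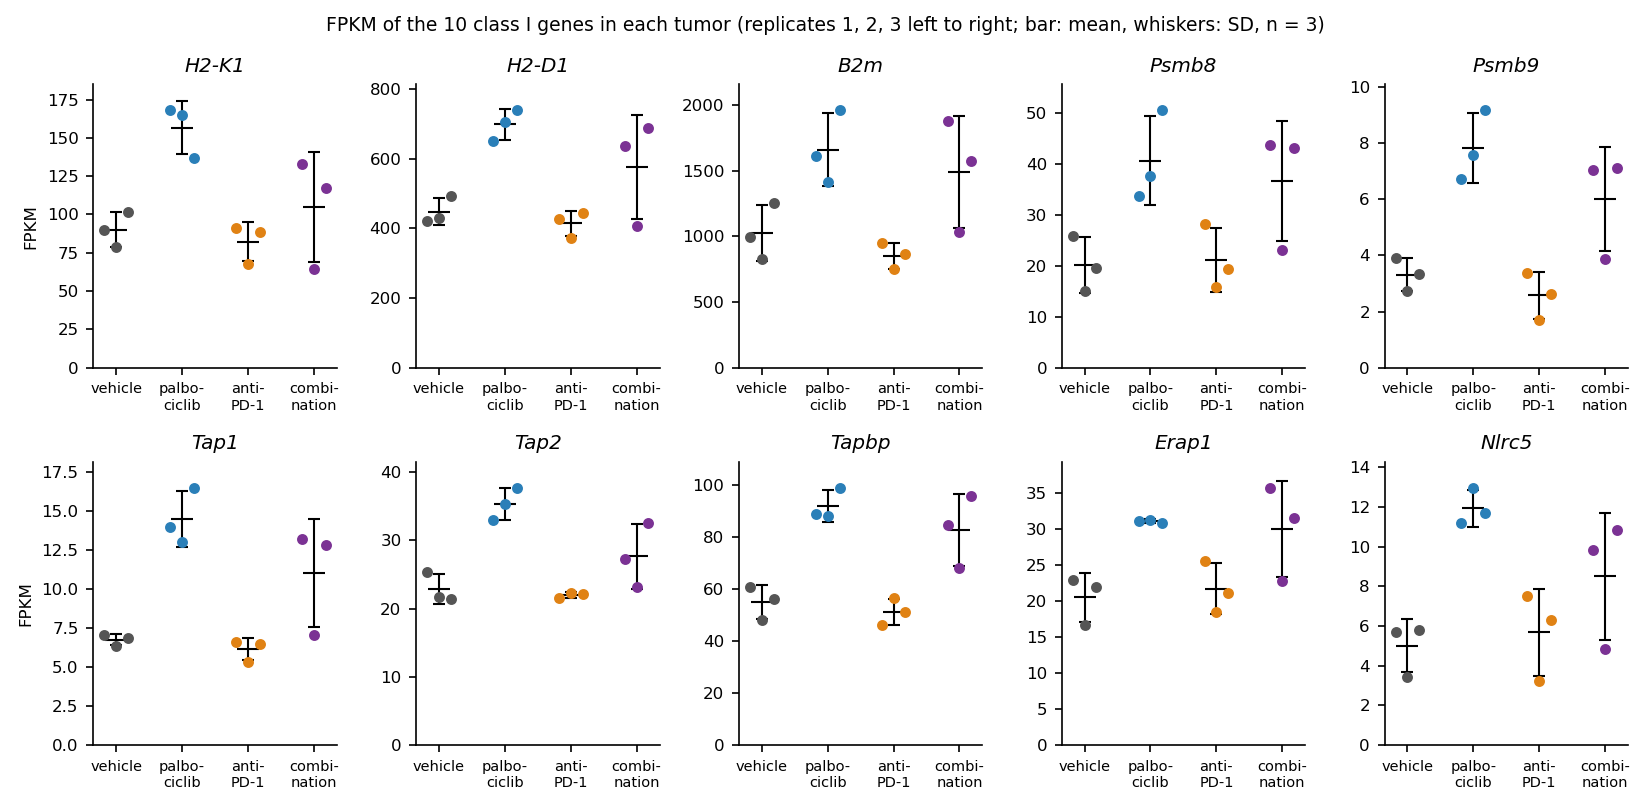
Levels of the 10 members in every tumor, in FPKM on axes that start at 0, with the 4 arms side by side. Points are single tumors in the order of their replicate number, the bar is the mean and the whiskers are the SD of 3 tumors. The 3 palbociclib tumors lie above all 3 vehicle tumors in each panel, and combination replicate 2 lies lowest in its arm in each.

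Palbociclib and anti-PD-1 were each given in 2 of the 4 arms, and only for palbociclib were both pairs of arms averaged. This effect of palbociclib was tested first. The effect averages 2 differences on the log2(FPKM + 0.1) scale, palbociclib minus vehicle and combination minus anti-PD-1, and is called the palbociclib effect. Psmb9, Tap1 and Tapbp rose, by 1.20 ± 0.20, 0.94 ± 0.15 and 0.72 ± 0.10 (SE) on the log2 scale, which corresponds to 2.30-, 1.91- and 1.64-fold (limma, adjusted p = 0.0399, 0.0399 and 0.0339). These 3 of 10 members passed a threshold of 0.05 over all genes, where 0.248% of all genes were called higher and 0.0651% lower. The other 7 had positive differences between 0.47 and 0.93 with adjusted p-values between 0.0522 and 0.125. At an unadjusted p under 0.05, 10 of 10 members were higher, against 14.1% of all genes tested. The median difference was 0.73 for the members and 0.06 for all genes. The number of members called depended on single tumors: it was 10 without combination replicate 2, 9 without anti-PD-1 replicate 1, 6 without vehicle replicate 1, 1 without palbociclib replicate 2 and 0 without any one of the other 8 tumors. In each of these fits all 10 differences stayed positive with an unadjusted p under 0.05.

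Heavy and light chains make up the surface molecule itself. H2-K1 was at 89.8, 78.5 and 101.5 FPKM in the vehicle tumors and at 168, 165 and 137 with palbociclib. It was at 91.1, 67.5 and 88.4 FPKM with anti-PD-1 and at 133, 64.6 and 117 with the combination. The palbociclib tumors were all above vehicle, whereas combination replicate 2 was the lowest of all 12 tumors and let the combination overlap both arms without palbociclib. The H2-K1 difference was 0.80 ± 0.24 without anti-PD-1 and 0.30 ± 0.24 with it (log2 ± SE), and the palbociclib effect of 0.55 did not pass (limma, adjusted p = 0.125).

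For H2-D1 the vehicle tumors had 422, 429 and 492 FPKM and the palbociclib tumors 651, 706 and 740. With anti-PD-1 its values were 427, 373 and 443 FPKM, and with the combination 636, 407 and 688. Again palbociclib and vehicle did not overlap, and combination replicates 1 and 3 stood near the palbociclib arm while replicate 2 stood among the tumors not given palbociclib. The palbociclib effect for H2-D1 was 0.54 ± 0.13 (log2 ± SE, limma, adjusted p = 0.0836). B2m, the light chain shared by all class I molecules, was at 993, 827 and 1255 FPKM with vehicle and at 1611, 1412 and 1960 with palbociclib. Anti-PD-1 tumors had 946, 749 and 866 FPKM and combination tumors 1875, 1034 and 1572. All 3 tumors of each palbociclib-treated arm were above all 3 of its partner arm, and the B2m effect was 0.74 ± 0.17 (limma, adjusted p = 0.0807). The proportion of heavy to light chain transcripts was lowest with the combination in the mean. H2-K1 per B2m averaged 0.0888 ± 0.0072 with vehicle, 0.0970 ± 0.0244 with palbociclib, 0.0961 ± 0.0059 in the anti-PD-1 arm and 0.0693 ± 0.0062 with the combination (ratio of FPKM, SD, n = 3).

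Psmb8 and Psmb9 encode catalytic subunits of the immunoproteasome, which replace their constitutive counterparts and favour peptides that suit class I grooves. Psmb9 was at 3.89, 2.73 and 3.32 FPKM with vehicle and at 6.73, 7.56 and 9.16 with palbociclib. It was at 3.39, 1.71 and 2.63 with anti-PD-1 and at 7.05, 3.88 and 7.12 with the combination. Every palbociclib-treated tumor exceeded every tumor of its partner arm, and combination replicate 2 fell just under vehicle replicate 1. The Psmb9 difference was 1.22 ± 0.28 without anti-PD-1 and 1.19 ± 0.28 with it (log2 ± SE), and its palbociclib effect was the largest of the members. Psmb8 had 25.9, 15.0 and 19.6 FPKM with vehicle, 33.7, 37.6 and 50.5 with palbociclib, 28.1, 15.9 and 19.3 with anti-PD-1 and 43.6, 22.99 and 43.1 with the combination. Palbociclib did not overlap vehicle here either, but combination replicate 2 stood below anti-PD-1 replicate 1. The Psmb8 effect of 0.90 ± 0.21 did not pass (limma, adjusted p = 0.0836).

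TAP, the peptide transporter, is a dimer of the products of Tap1 and Tap2. Tap1 was at 7.06, 6.33 and 6.88 FPKM with vehicle, 13.98, 13.0 and 16.5 with palbociclib, 6.57, 5.31 and 6.50 with anti-PD-1 and 13.2, 7.04 and 12.8 with the combination. The arms without palbociclib were tight, the palbociclib tumors were about 2.14 times as high as vehicle in the mean, and combination replicate 2 was alone near the level of the arms without it. Tap2 was at 25.4, 21.7 and 21.4 FPKM with vehicle, 33.0, 35.3 and 37.7 with palbociclib, 21.5, 22.3 and 22.2 with anti-PD-1 and 27.3, 23.1 and 32.5 with the combination. For Tap2 the difference was smaller: its effect was 0.47 ± 0.09 on the log2 scale, the smallest among the members (limma, adjusted p = 0.0522), although both palbociclib-treated arms lay above their partners. Tap1 per Tap2 was accordingly 0.297 ± 0.022 with vehicle, 0.410 ± 0.036 with palbociclib, 0.279 ± 0.036 in the anti-PD-1 arm and 0.394 ± 0.089 with the combination (ratio of FPKM, SD, n = 3).

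Tapbp encodes tapasin, which bridges TAP and the empty class I molecule and edits its peptide. Its values were 60.8, 48.1 and 56.0 FPKM with vehicle, 88.9, 87.9 and 99.0 with palbociclib, 46.0, 56.3 and 51.0 with anti-PD-1 and 84.5, 68.0 and 95.6 with the combination. Tapbp was the single member for which every tumor given palbociclib, combination replicate 2 included, was above every tumor not given it. How many of all genes met this condition was not counted. The weaker condition, that each treated arm lay above its partner arm, held for 1.95% of all genes. Its difference was 0.75 ± 0.14 without anti-PD-1 and 0.68 ± 0.14 with it, and it had the smallest adjusted p-value of the set in both (limma, adjusted p = 0.0690 and 0.306).

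Erap1, which trims peptides to the length the groove holds, was at 22.97, 16.7 and 21.9 FPKM with vehicle and at 31.2, 31.3 and 30.9 with palbociclib. With anti-PD-1 it was at 25.6, 18.5 and 21.1 FPKM and with the combination at 35.8, 22.7 and 31.6. The palbociclib tumors were nearly identical (SD 0.236, n = 3) and above all vehicle tumors, while the combination overlapped anti-PD-1 through replicate 2. Nlrc5, the class I transactivator, was at 5.72, 3.45 and 5.82 FPKM with vehicle, 11.2, 13.0 and 11.7 with palbociclib, 7.50, 3.24 and 6.29 with anti-PD-1 and 9.85, 4.83 and 10.8 with the combination. It had the largest difference between palbociclib and vehicle, 1.28 ± 0.35, and also the widest error, and with anti-PD-1 the difference was 0.57 ± 0.35 (log2 ± SE). Neither gene passed in the palbociclib effect (limma, adjusted p = 0.0836 for Erap1 and 0.102 for Nlrc5).

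The 2 comparisons that make up the palbociclib effect share no tumor, but their spread was estimated together from all 12 tumors. The others below also share arms with them. In palbociclib against vehicle no member passed (limma, lowest adjusted p = 0.0690), where 0.143% of all genes were called in either direction, and at an unadjusted p under 0.05 10 of 10 members were higher against 9.43% of all genes. All 10 also had 3 palbociclib tumors above 3 vehicle tumors, which held for 12.9% of all genes. In combination against anti-PD-1 no member passed (lowest adjusted p = 0.306, 0.00651% of all genes called), 8 of 10 were higher at an unadjusted p under 0.05 against 7.61%, the exceptions being H2-K1 and Nlrc5. That count was 10 without combination replicate 2, 5 without anti-PD-1 replicate 2 and 4 without either of the other combination tumors. Of the members, 5 (B2m, Tap1, Tap2, Tapbp and Psmb9) did not overlap, against 11.4%. The 5 did so in both comparisons at once, which held for 1.95% of all genes. Without combination replicate 2, Tap1, Tap2 and Tapbp passed in palbociclib against vehicle and Tap1 in combination against anti-PD-1. In palbociclib against vehicle the differences themselves stayed the same, with a median of 0.77, because that tumor enters only through the shared spread.

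Between anti-PD-1 and vehicle no member differed beyond the spread of the tumors. Differences ran from -0.39 for Psmb9 to 0.14 for Nlrc5 on the log2 scale, 7 of 10 were negative, and none reached an unadjusted p under 0.05, against 8.4% of all genes in either direction. No gene at all was called in this comparison (limma, 0%; 1289 of 15350 genes had an unadjusted p under 0.05). The 95% intervals still allow changes of some size, for example from -0.51 to 0.29 for H2-D1 and from -1.0 to 0.22 for Psmb9.

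**Figure D2:**
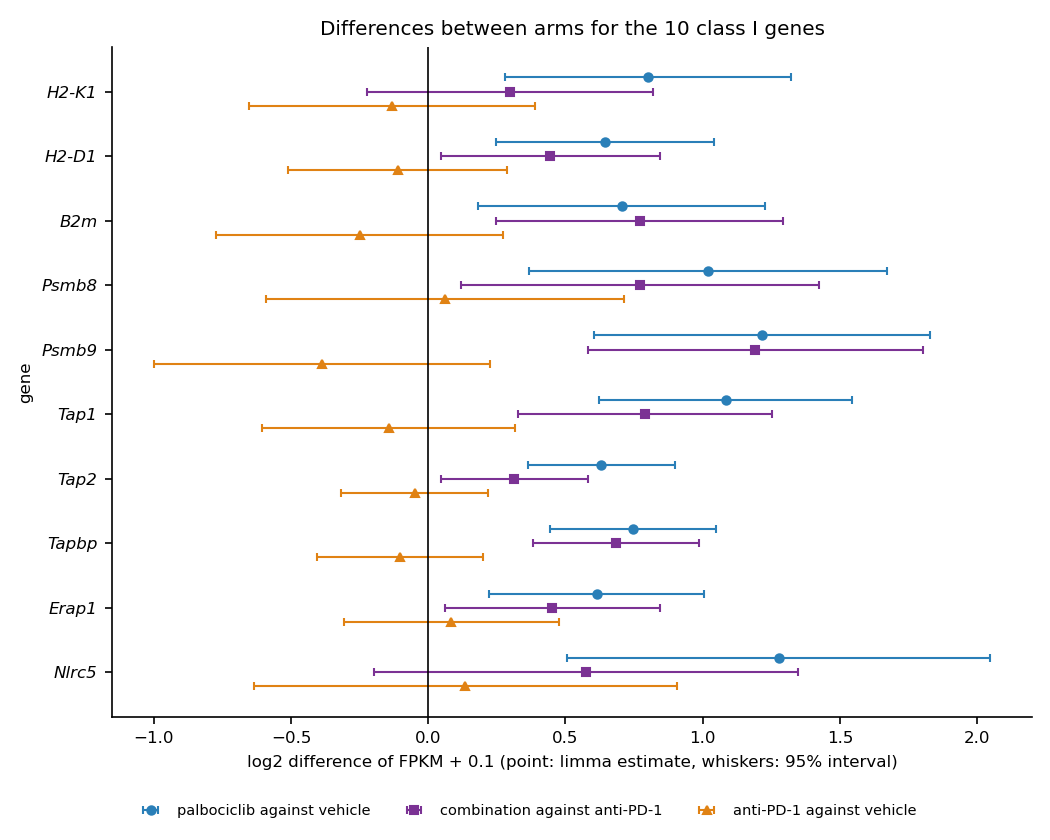
Differences between arms for the 10 members on the log2(FPKM + 0.1) scale, with limma estimates as points and 95% intervals as whiskers. All 10 intervals of palbociclib against vehicle lie above 0, those of combination against anti-PD-1 do so for 8 members, and all 10 of anti-PD-1 against vehicle include 0.

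The combination was then compared with vehicle and with palbociclib alone. Against vehicle all 10 differences were positive, from 0.16 for H2-K1 to 0.83 for Psmb8, and none passed (limma, lowest adjusted p = 0.184, 0.013% of all genes called). At an unadjusted p under 0.05, Tap1, Tapbp, Erap1, Psmb8 and Psmb9 were higher, 5 of 10 against 8.64% of all genes. That count was 10 without combination replicate 2, and 1, 3 and 2 without combination replicate 1, combination replicate 3 and vehicle replicate 2. Only Tapbp had 3 combination tumors above 3 vehicle tumors, which held for 10.8% of all genes. Against palbociclib alone all 10 differences were negative, from -0.64 for H2-K1 to -0.08 for Erap1, with an adjusted p of 1 for each (limma, 0.00651% of all genes called). H2-K1 and Tap2 were lower at an unadjusted p under 0.05, 2 of 10 against 3.47% of all genes, and H2-K1, Tap2 and Nlrc5 had all 3 combination tumors below all 3 palbociclib tumors, against 9.15%. Without combination replicate 2 no member was under 0.05, and B2m, Erap1 and Psmb8 turned positive. The interaction, the difference between the palbociclib effect with and without anti-PD-1, ran from -0.70 ± 0.50 for Nlrc5 to 0.07 ± 0.34 for B2m (log2 ± SE). None of the 10 reached an unadjusted p under 0.05 in it, against 5.73% of all genes, and no gene was called (limma, 0%; 879 of 15350 genes had an unadjusted p under 0.05).

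**Figure D3:**
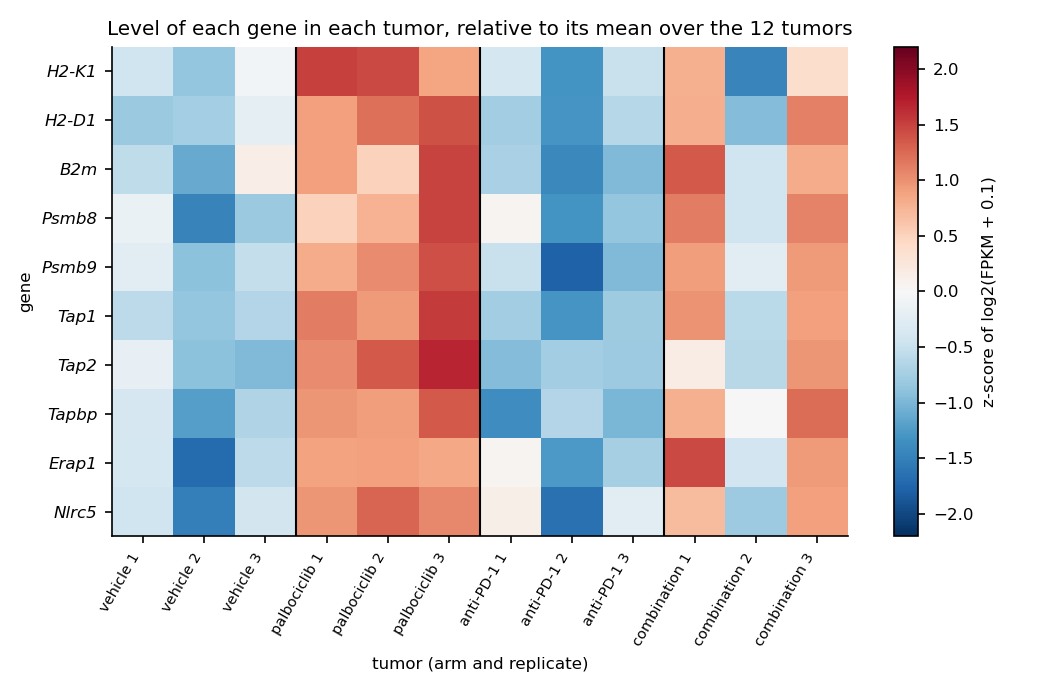
Each member in each of the 12 tumors, as the z-score of log2(FPKM + 0.1) over the tumors, red for above and blue for below the gene's mean. The palbociclib tumors and combination replicates 1 and 3 are above the mean for all 10 members, and combination replicate 2 is blue or near white throughout.

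Single tumors were often low or high for most members at once. Combination replicate 2 was the lowest of its arm for 10 of 10 members and below all 3 palbociclib tumors for 10, and it was above the highest vehicle tumor for Tapbp alone. Vehicle replicate 2 and anti-PD-1 replicate 2 were each the lowest of their arm for 8 members, and palbociclib replicate 3 was the highest of its arm for 7. Palbociclib replicate 3 was also the lowest of its arm for 2 members. Summed muscle markers were high in combination replicate 2 (133 FPKM) and in palbociclib replicate 3 (137 FPKM). The part of surrounding tissue in the levels of the members was not tested. Over the 12 tumors the 45 pairs of members correlated at Pearson r from 0.74 to 0.97, with a median of 0.90. After the arm means were taken off, r ran from 0.37 (Tapbp and Nlrc5) to 0.96 (Psmb8 and Psmb9), with a median of 0.78. These values describe 12 tumors that share a scaling within each tumor.

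Among 11177 other genes with a mean of at least 1 FPKM, the 5 whose pattern over the 12 tumors was most like the mean z-score of the members were Gbp7, Gm4951, H2-Q7, Gbp9 and C920025E04Rik, with r between 0.970 and 0.991. Gbp7 and Gbp9 belong to the guanylate-binding proteins, GTPases that interferons induce, and H2-Q7 is a nonclassical class I gene. Gbp7 averaged 4.34 ± 1.25 FPKM with vehicle, 12.1 ± 0.793 with palbociclib, 4.20 ± 0.951 in the anti-PD-1 arm and 8.93 ± 3.77 with the combination (SD, n = 3). The 5 were picked for their likeness to the members over these same 12 tumors, arm differences included. Their palbociclib effects therefore follow from that choice and are a description only. Of the 5, Gbp9 was higher in the palbociclib effect, by 1.03 ± 0.17 on the log2 scale (limma, adjusted p = 0.0399). The differences of the other 4 lay between 0.61 and 1.41 with adjusted p-values between 0.0522 and 0.0699.

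The proteasome subunits allow a comparison within a tumor, because each inducible catalytic subunit replaces a constitutive one: Psmb8 replaces Psmb5, Psmb9 replaces Psmb6 and Psmb10 replaces Psmb7. A ratio of FPKM within a tumor does not depend on the scaling between tumors. Psmb9 to Psmb6 was 0.0744, 0.0824 and 0.0799 with vehicle, 0.158, 0.141 and 0.161 with palbociclib, 0.0578, 0.0379 and 0.0628 with anti-PD-1 and 0.137, 0.0730 and 0.129 with the combination. Every palbociclib-treated tumor was above its partner arm, with combination replicate 2 alone among the treated tumors at the vehicle level. All 3 ratios rose with palbociclib, Psmb8 to Psmb5 by 0.67, Psmb9 to Psmb6 by 1.02 and Psmb10 to Psmb7 by 1.12 on the log2 scale (two-sided exact permutation test over 400 relabelings, adjusted over the 3 ratios, p = 0.015, 0.0075 and 0.0075). The smallest unadjusted p that this test can give is 0.005, which the ratios of Psmb9 and Psmb10 reached. The constitutive subunits themselves had differences of 0.23 (Psmb5), 0.22 (Psmb6) and 0.15 (Psmb7) and did not pass (limma, adjusted p = 0.216, 0.346 and 0.353).

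**Figure D4:**
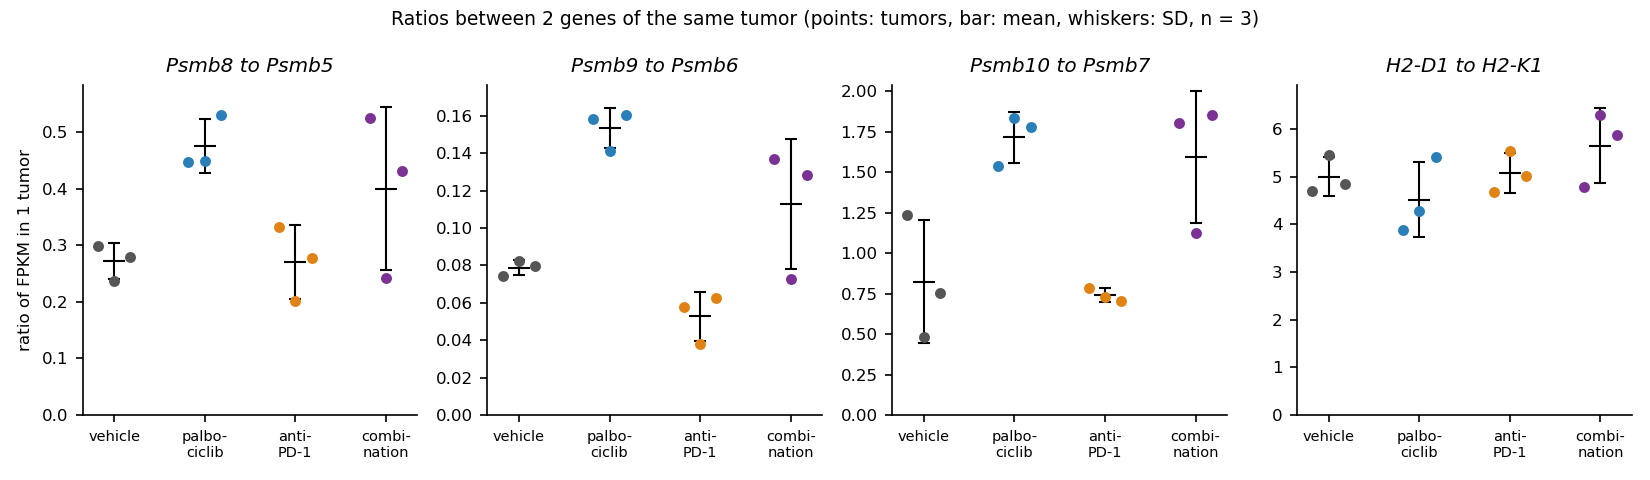
Ratios of FPKM within each tumor on linear axes that start at 0, for the 3 inducible to constitutive subunit pairs and for H2-D1 to H2-K1. Points are tumors in replicate order, bars the mean and whiskers the SD of 3 tumors. Mean Psmb10 to Psmb7 was 0.824 with vehicle, 1.72 with palbociclib, 0.739 in the anti-PD-1 arm and 1.59 with the combination, and H2-D1 to H2-K1 stayed between 3.88 and 6.30.

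Other genes of the pathway were followed in lists by role, each with its count of genes tested. Among 4 peptide loading partners none passed, and the median palbociclib effect was 0.15 on the log2 scale. The chaperones Calr, Canx and Pdia3, which fold many glycoproteins besides class I, had differences of 0.18, -0.06 and 0.11. Tapbpl, a tapasin relative that edits class I peptides, was at 7.77, 3.75 and 5.72 FPKM with vehicle, 11.4, 13.4 and 14.6 with palbociclib, 7.11, 4.98 and 6.33 with anti-PD-1 and 14.8, 6.49 and 14.6 with the combination. Like most members it was low in combination replicate 2, and its difference of 1.05 ± 0.23 did not pass (limma, adjusted p = 0.0737).

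Psmb10, the third inducible catalytic subunit, and Psme1 and Psme2, which form the PA28 activator, had differences of 1.26, 0.51 and 0.56 (limma, adjusted p = 0.0536, 0.0715 and 0.0543). None of these 3 passed over all genes, and all 3 were higher at an unadjusted p under 0.05, against 14.1% of all genes. Of the 11 other subunits of the 20S core none passed in either direction, with a median of 0.15 and values from -0.07 to 0.25. The smallest p-values among them were those of Psmb4 (0.19), Psma1 (0.20) and Psma4 (0.25), with adjusted p-values between 0.254 and 0.283. Among 6 cytosolic and endosomal peptidases none passed and the median was -0.04. Npepps and Lnpep, which cut peptides at their amino end, had differences of -0.46 and -0.52 (limma, adjusted p = 0.219 and 0.257). Thop1, a cytosolic oligopeptidase, had a difference of 0.11 (limma, adjusted p = 0.559).

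Irf1 and Stat2 encode transcription factors of the interferon response. Their differences in the palbociclib effect were 0.73 ± 0.18 and 0.38 ± 0.11 on the log2 scale, and neither passed (limma, adjusted p = 0.0885 and 0.112).

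Among 8 tested genes of the class I family that resemble H2-K1 and H2-D1, H2-T22 rose. It was at 17.4, 15.1 and 18.8 FPKM with vehicle, 27.0, 27.9 and 32.0 with palbociclib, 17.5, 16.4 and 13.6 with anti-PD-1 and 32.5, 23.2 and 28.7 with the combination. Treated and other tumors did not overlap, and the difference was 0.79 ± 0.10 on the log2 scale (limma, adjusted p = 0.0339). The share of all genes without such overlap was not counted, and the weaker condition that each treated arm lay above its partner arm held for 1.95%. At an unadjusted p under 0.05, 7 of the 8 were higher, against 14.1% of all genes. Among the 7 were H2-Q7 (1.19) and H2-T23 (0.73), the ligand of inhibitory NK-cell receptors. The median of the 8 was 0.78 and that of all genes 0.06. Of the 8, H2-Q6, H2-Q7, H2-Q10, H2-T22 and H2-T23 share 100-base windows with H2-K1 or H2-D1, so fragments could be split between them, whereas H2-Q4, H2-T24 and H2-M3 share none.

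**Figure D5:**
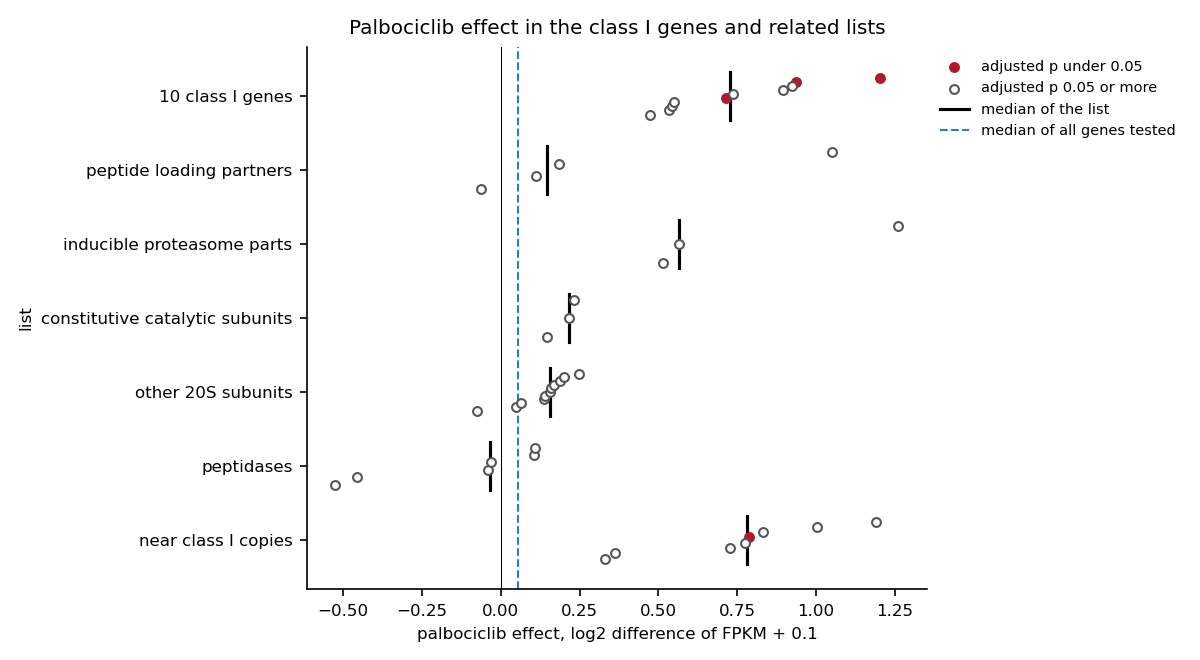
Palbociclib effect of each tested gene, in log2 difference of FPKM + 0.1, for the 10 class I genes and 6 related lists. Filled points have an adjusted p under 0.05, thick bars are list medians and the dashed line is the median of all genes, 0.06. The members and the class I relatives lie right of it, with medians of 0.73 and 0.78, and the peptidases spread around it.

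On chromosome 17, 7 members share an interval with 83 other tested genes. Of these 83, 56 had a positive and 27 a negative palbociclib effect, and none passed (limma). At an unadjusted p under 0.05, 24 (28.9%) were higher, against 14.1% of all genes, and 6 (7.23%) were lower, against 6.44%. Their median was 0.10 on the log2 scale, that of all genes 0.06 and that of the members 0.73. The 5 with the smallest p-values were Notch4 (-0.88) and the class II and complement genes H2-DMa (2.0), H2-DMb1 (0.63), C4b (2.41) and H2-Aa (3.04), with adjusted p-values between 0.0736 and 0.0884, a choice made from their values.

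Immune cell markers are given beside the members, and none of those in the lists below passed in the palbociclib effect. The 3 leukocyte markers Ptprc, Laptm5 and Coro1a summed to 16.0 to 31.5 FPKM with vehicle, 29.4 to 45.4 with palbociclib, 15.6 to 26.8 in the anti-PD-1 arm and 20.03 to 42.3 with the combination. The 6 T-cell markers summed to 0.893 to 5.54, 5.90 to 12.9, 1.36 to 3.61 and 4.08 to 12.6 FPKM in the same order. In the sum of T-cell markers the palbociclib tumors were thus all above the vehicle tumors, by a narrow margin. Taken singly, Cd3d, Cd5 and Cd8a did not overlap between these arms, whereas Cd3e, Cd3g and Cd8b1 did. Palbociclib lay wholly above vehicle for 12.9% of all genes. Combination replicate 2 had the lowest sum of its arm in both lists. All 6 T-cell markers were higher in the palbociclib effect at an unadjusted p under 0.05, against 14.1% of all genes. None of the 6 passed over all genes (limma, adjusted p between 0.0736 and 0.119). The 5 macrophage markers summed to 74.9 to 360 FPKM with vehicle, 293 to 468 with palbociclib, 86.5 to 287 with anti-PD-1 and 204 to 462 with the combination, and the 4 neutrophil markers to 29.2 to 504, 13.7 to 29.9, 43.2 to 254 and 12.8 to 79.6. The 7 NK-cell markers Ncr1, Klrb1c, Klrd1, Nkg7, Prf1, Gzma and Gzmb summed to 22.99 to 57.6, 53.1 to 76.2, 35.0 to 60.5 and 27.0 to 66.5 FPKM. This sum rests mainly on the cytotoxic genes: with vehicle Gzmb averaged 20.4 FPKM and Ncr1 0.868. It is therefore no measure of NK cells alone. In the palbociclib effect 2 of 3 leukocyte, 3 of 5 macrophage and 2 of 7 NK-cell markers were higher at an unadjusted p under 0.05. Of the 4 neutrophil markers 3 were lower at that threshold, against 6.44% of all genes. No defining marker of these lists was at 0 in all tumors, and the part of these cells in the levels of the class I genes was not tested.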

How the data were processed

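RNA of 12 tumors was sequenced on an Illumina instrument, and the authors deposited 1 table of FPKM per tumor, with HISAT2 and GRCm38/mm10 named in the submitters' processing notes. The counting tool, annotation release and use of strand are not given in the sources used here. Of repeated symbols only the entry with the highest mean was kept, which dropped 67 entries and left 34678 symbols. Genes with a mean of at least 0.1 FPKM (15350) were put on the log2(FPKM + 0.1) scale and fitted in R 4.3.3 by limma 3.58.1, with 1 mean per arm, a moderated variance with trend, and Benjamini-Hochberg adjustment over all genes (threshold 0.05). Fragment totals were inferred from steps in 13315 single-transcript genes, where 94.9 to 97.1% of values came out whole within 0.05. Because genes with several transcripts gave no whole counts, no count test was run. Ratios were tested by exact permutation of palbociclib labels within each level of anti-PD-1. Simulated data with known changes served to check the model. All 10 members are named, and of longer lists the 3 genes with the smallest p. The list of regulators of class I transcription is an exception: 1 gene is not reported here, and neither the list's count nor its median is given. The members and lists were chosen with earlier results of these data known. Positions come from GENCODE M21 and promoters from RefSeq.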

Additional observations from a re-analysis of the deposited data

How the results depend on the processing

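With 3 tumors per arm, calls over all genes rested on single tumors, whereas directions of the palbociclib effect did not turn in any alternative run. The number of the 10 members called in the palbociclib effect was 3 with pseudocounts of 0.01 and 1, quantile normalization or TPM, 4 with a mean of at least 1 FPKM, 1 with any FPKM above 0 and 0 with a variance without trend; the cause was not tested. Leaving out 1 tumor gave 0 to 10 calls in the palbociclib effect, 0 to 3 in palbociclib against vehicle and 0 to 1 in combination against anti-PD-1. With the replicate number as a block, 7 members were called in the palbociclib effect and 1 in palbociclib against vehicle. Same-numbered tumors showed no uniform pairing. The correlation of their deviations from the arm means ran from -0.21 to 0.45 over 18 pairs, 7 of them over 0.1. It was 0.45, 0.13 and 0.25 between vehicle and anti-PD-1, but -0.19, 0.00051 and -0.21 between vehicle and palbociclib. Of the 12 tumors, 5 correlated best with their own number. Whether some arms share a replicate effect was not tested. The calls of the 3 ratios held in every alternative, the block included. Signs turned only when 1 tumor was left out. In anti-PD-1 against vehicle the log2 differences then ran from -0.23 to 0.0040 for H2-K1, -0.094 to 0.030 for Tap2, -0.11 to 0.49 for Nlrc5, -0.057 to 0.19 for Erap1 and -0.17 to 0.26 for Psmb8, and in combination against vehicle from -0.041 to 0.48 for H2-K1. In combination against palbociclib they ran from -0.37 to 0.061 for B2m, -0.22 to 0.11 for Erap1 and -0.35 to 0.12 for Psmb8. In the interaction they ran from -0.34 to 0.034 for H2-D1, -0.12 to 0.31 for B2m, -0.17 to 0.072 for Tapbp, -0.30 to 0.026 for Erap1, -0.45 to 0.056 for Psmb8 and -0.28 to 0.26 for Psmb9. Psmb9, at 102 to 556 fragments, is the member that depth limits most.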
